A study of Homo sapiens and Mus musculus with 47 samples.

Results

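The genes described here encode the Polycomb chromobox (CBX) proteins CBX2, CBX6, CBX7 and CBX8, the core of Polycomb repressive complex 2 (EZH1, EZH2, EED and SUZ12), and RNF2, the ubiquitin ligase of Polycomb repressive complex 1. They were matched by gene symbol, with no measured value in the rule. All 9 were found among the 57820 genes of the human tables, and their 9 orthologues among the 55401 genes of the mouse tables. They were followed through 35 of the 47 libraries of a series built around Chrom-seq, a method that tags RNA close to a histone mark of choice.

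In Chrom-seq, a reader domain that binds the mark carries a peptide array, the array recruits the peroxidase APEX2, and APEX2 tags neighbouring RNA with biotin for capture on streptavidin. The TAF3 reader, a domain that binds H3K4me3, was compared with the peptide array alone in HCT116, a human line from a colon carcinoma, and in the mouse lines NIH3T3, which are fibroblasts, and Neuro-2a, from a neuroblastoma. RNA-seq came from HEK293T cells, a human embryonic kidney line, expressing the CBX7 reader for H3K27me3, or from cells labelled Control. Further HEK293T cells received an antisense oligonucleotide (ASO) to the long noncoding RNA SETD5-AS1, LINC00641 or LINC00662, or a control ASO. The labels give every sample the same treatment, with the peptide array and APEX2 constructs expressed for 48 h, then 30 min of 500 µM biotin-aniline and 1 min of 1 mM H2O2. They do not set the Control cells apart, whereas the study's methods describe them as untreated, and they give no duration for the ASOs. There were 3 libraries per group, but only 2 for the LINC00641 ASO. All groups came from cell lines, and the labels do not say that replicates were separate cultures, so p-values measure only the spread between these libraries.

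Polycomb proteins keep developmental genes silent. PRC2 places methyl groups on lysine 27 of histone H3 through EZH2 or EZH1, with EED and SUZ12 needed for its activity, and EED also reads the finished mark. The CBX proteins bring PRC1 to that mark through their chromodomains, and RNF2 then ubiquitinates histone H2A. EZH2 is the form typical of dividing cells, and EZH1 is found more in resting and differentiated ones.

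The 18 Chrom-seq libraries held 10012172 to 17558305 counts each, and the 17 RNA-seq libraries 8258859 to 15330874. Levels are given as CPM, in which each count is divided by its library total after TMM scaling, and are not compared between genes because the tables give each gene its whole span as length. A gene was called, and is said to have risen or fallen, where edgeR gave an adjusted p under 0.05 and its log2 fold change was 0.75 or more in size. The share over all genes was taken for calls only. Counts of genes by adjusted p alone, or by groups that do not overlap, have no such share and are only descriptions. The markers fixed for each line were detected in it, except that Tubb3, a neuronal tubulin on the Neuro-2a list, was at 0 in every mouse library. Not all were higher in their own line, though HCT116 was read by Chrom-seq and HEK293T by RNA-seq, in tables normalized separately. CDX2, on the HCT116 list, had means of 12.5 and 13.3 CPM in HCT116 and 29.5 to 59.9 in the HEK293T ASO groups. PAX2, on the HEK293T list, had 9.85 and 11.5 CPM in HCT116 and 5.3 to 9.1 in the ASO groups. In Neuro-2a, 1 library, TAF3 replicate 1, lay far from its group, and results there are also given without it. Taf3, the gene of the reader, checked the labels: NIH3T3 cells had 8418 ± 667 CPM with the reader against 128 ± 5.32 with the array alone, and Neuro-2a cells 1739 ± 142 against 183 ± 15.3 (SD, n = 3 each). In HCT116 the check is weak, since the reader is a mouse sequence and human TAF3 was at 32.7 ± 0.338 CPM against 24.2 ± 1.35 (SD, n = 3 each), which was not called.

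The CBX7 reader is the chromodomain of mouse CBX7, codons 2 to 76, so its transcript can be counted at the human CBX7 gene. The stretch is shown for both species because the counts at this gene cannot separate the reader from the endogenous transcript. It was read from the human reference (chr22:39534659-39548446, minus strand, GRCh37) and from the mouse reference (chr15:79921390-79932513, minus strand, GRCm38), spliced from 4 exon blocks in each. Capitals mark the bases that differ between the species.
human CBX7: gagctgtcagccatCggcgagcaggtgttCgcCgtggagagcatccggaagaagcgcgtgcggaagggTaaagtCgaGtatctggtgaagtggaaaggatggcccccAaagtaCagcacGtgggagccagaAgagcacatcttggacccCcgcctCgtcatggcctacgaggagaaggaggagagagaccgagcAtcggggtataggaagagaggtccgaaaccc
mouse Cbx7: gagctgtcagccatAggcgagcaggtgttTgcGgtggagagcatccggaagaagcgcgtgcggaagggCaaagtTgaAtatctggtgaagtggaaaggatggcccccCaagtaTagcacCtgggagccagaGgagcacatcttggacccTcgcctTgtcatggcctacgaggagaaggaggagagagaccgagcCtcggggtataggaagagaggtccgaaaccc
Of the 225 bases, 212 were identical (94.2%), the longest identical run was 38 bases, and 0 of the 75 encoded residues differed. The nucleotide sequence of the expressed construct is not given in the sources used here. The share of the CBX7 counts that came from it was not tested.

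RNA-seq of the CBX7 cells asked how the transcriptome differed from that of the Control cells. If the Control cells were untreated, as the study's methods say, effects of the reader and of the labelling treatment cannot be told apart. Among the Polycomb genes, CBX7 and CBX8 rose and EZH1 fell, while the other 6 genes were not called. CBX7 was at 44.1, 39.5 and 41.7 CPM in the CBX7 libraries and at 18.5, 14.8 and 16.2 in the Control libraries. The groups did not overlap, and the log2 fold change was 1.34 (SE 0.11, edgeR adjusted p = 1.15e-06). The 3 calls are set against 7.66% of all 18204 tested genes called in this comparison, 4.17% higher and 3.48% lower. They include CBX7, whose counts can hold the expressed reader, so that call is not one of the endogenous gene alone. In bulk samples, fewer cells that express a gene and less of its RNA per cell cannot be told apart.

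CBX8, a PRC1 chromobox protein encoded on the other strand 4.15 kb from CBX2 (chr17:77765931-77775482, hg19), was at 58.7, 46.2 and 50.3 CPM in the CBX7 libraries and at 30.9, 29.4 and 27.9 in the Control libraries. Every CBX7 library was above every Control library, with a log2 fold change of 0.81 (SE 0.10, edgeR adjusted p = 3.1e-05). Without CBX7 replicate 1, which held its highest value, it was 0.72 and under the fold-change threshold. EZH1, the alternative catalytic subunit of PRC2 (chr17:40852293-40897071), moved the other way, at 37.5, 46.8 and 50.6 CPM against 71.0, 82.0 and 79.4 in the Control libraries. The groups did not overlap, and the log2 fold change was −0.78 (SE 0.10, edgeR adjusted p = 5.84e-05). It was −0.67 without CBX7 replicate 1 and −0.73 without Control replicate 2, both short of the threshold, and the number of members called was 1 without CBX7 replicate 1.

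**Figure D1:**
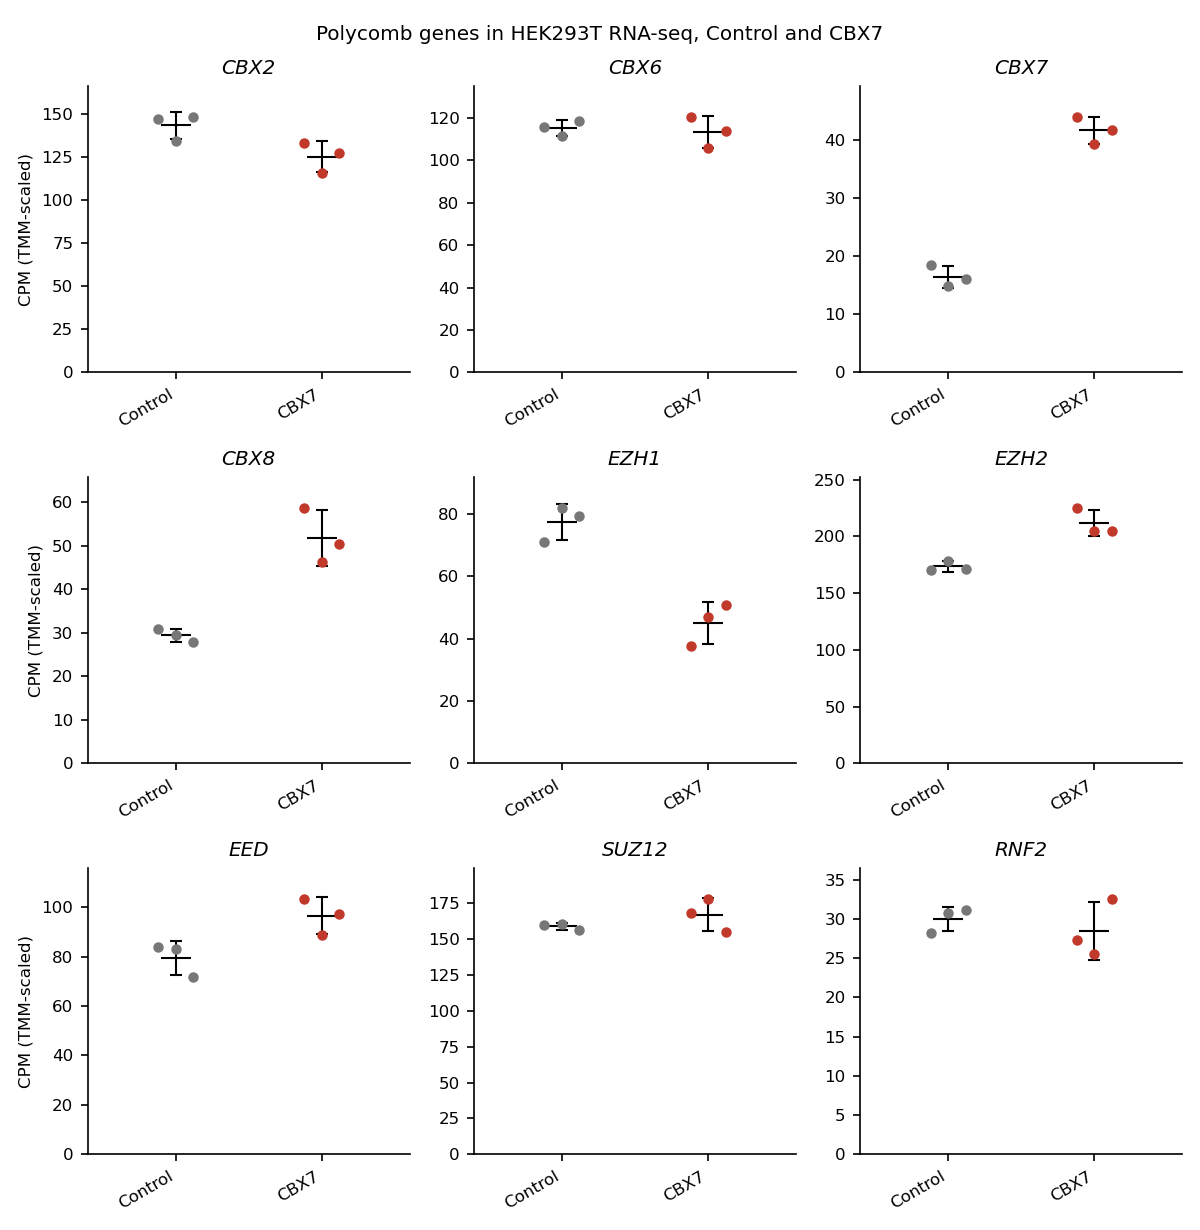
Levels of the 9 genes in HEK293T RNA-seq, in TMM-scaled CPM on axes that start at 0. Each point is a library, and bars give the mean and SD of 3 libraries. The CBX7 and Control points do not overlap for CBX7, CBX8 and EZH1, which were called, nor for CBX2, EZH2 and EED, which were not.

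EZH2, the main methyltransferase, was at 225, 205 and 205 CPM in the CBX7 cells and at 171, 179 and 171 in the Control. These groups did not overlap either, but the log2 fold change of 0.29 (edgeR adjusted p = 0.0093) was under the threshold. EED had a log2 fold change of 0.28 (edgeR adjusted p = 0.027), and the other genes ranged from −0.19 for CBX2 to 0.07 for SUZ12, the PRC2 scaffold. Of 38 other Polycomb genes, a list of PRC1 and PRC2 partners, H3K27 demethylases and H2A deubiquitinase subunits, 0 were called although 19 had an edgeR adjusted p under 0.05, with log2 fold changes from −0.37 to 0.69. CBX1, CBX3 and CBX5, the heterochromatin protein paralogs that read H3K9 methylation, gave 0 calls of 3, and 0 had an unadjusted p under 0.05. DESeq2 also called 3 members. The groups also differed in marker genes, whose part in the results was not tested: the summed HEK293T list (PAX2, LHX1 and NEFM) was at 193 to 199 CPM with CBX7 and at 345 to 418 in the Control. The 5 epithelial markers listed for HCT116 summed to 460 to 495 CPM and 323 to 349, but did not move together: KRT8 and KRT18, which carry the sum, had means of 299.7 and 131 CPM with CBX7 against 202 and 83.8, while CDH1 had 8.32 against 14.1 and EPCAM 6.25 against 8.12. Total counts were 8258859 to 10995383 with CBX7 and 12109803 to 15330874 in the Control, whose part was not tested either.

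The ASO experiments lowered 3 long noncoding RNAs in HEK293T cells and asked what followed in the transcriptome. The study names 8 targeting oligonucleotides of 20 bases and 1 control, and the labels do not say which were used in these libraries. Their sequences are shown because each could pair with other transcripts, including those of the Polycomb genes. Capitals mark the longest run complementary to the RNA of any of the 9 genes, read over the whole gene span with its introns.
SETD5-AS1-ASO-1: atcaatgagGATGTCATCac
SETD5-AS1-ASO-2: tcttgctaTCATGACAATAG
SETD5-AS1-ASO-3: cttacgcaaCGGATAAAGcc
LINC00641-ASO-1: gatgtggagCAACAGAAATG
LINC00641-ASO-2: gatAGTGGTATAGtaactgg
LINC00662-ASO-1: tgtagtctCTTATCTGCacc
LINC00662-ASO-2: ACTCTGTCTCAAAtaacttg
LINC00662-ASO-3: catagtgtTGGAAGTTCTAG
ASOXNC23: ttctccgaacGTGTCACGTT
The longest runs were 9 to 13 bases: CBX2 for SETD5-AS1-ASO-1, EZH2 for SETD5-AS1-ASO-2, SUZ12 for SETD5-AS1-ASO-3, CBX7 for LINC00641-ASO-1, EZH1 for LINC00641-ASO-2, CBX6 for LINC00662-ASO-1, CBX7 for LINC00662-ASO-2, RNF2 for LINC00662-ASO-3 and SUZ12 for the control ASOXNC23. The full sequence of 7 of the 8 targeting oligonucleotides lies once in the span of its target in hg19, all 7 in exons. For SETD5-AS1 they lie at chr3:9432018-9432037, chr3:9432087-9432106 and chr3:9432132-9432151, and for LINC00641 at chr14:21668966-21668985 and chr14:21668698-21668717. LINC00662-ASO-1 lies at chr19:28284662-28284681 and LINC00662-ASO-3 at chr19:28281738-28281757. LINC00662-ASO-2 spans an exon junction and matched 4 spliced transcripts. Where genes tied, the first of the list is named. In CBX8 the runs were 7 to 9 bases. The run of 9 was with SETD5-AS1-ASO-1, as long as the CBX2 run marked for it. A run is a description of sequence and not evidence of pairing.

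Each target was low where its own ASO was given. SETD5-AS1 was at 4.73, 4.24 and 3.97 CPM with its ASO and at 52.9, 53.4 and 53.6 with the control ASO, a log2 fold change of −3.62 (edgeR adjusted p = 3.69e-13). LINC00641 was at 0.916 and 1.93 CPM against 43.1, 38.5 and 41.4, and LINC00662 at 1.97, 1.23 and 1.53 CPM against 12.5, 14.3 and 13.3, with no overlap. SETD5-AS1 also fell to 29.8 CPM when LINC00641 was targeted and to 28.5 when LINC00662 was, the former at −0.75 and just short of the threshold with library size alone. The 3 comparisons with the control ASO share its 3 libraries, so their values are given side by side and are not independent of each other. Whether a difference lies with the targeting ASOs or with the control ASO was not tested.

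CBX8 was the member that fell in all 3 comparisons. Its control ASO libraries held 53.7, 59.7 and 51.1 CPM. It was at 25.2, 26.6 and 27.1 CPM when SETD5-AS1 was targeted, at 32.1 and 28.1 for LINC00641, and at 27.7, 26.4 and 27 for LINC00662. The lowest control ASO library lay above the highest targeting one. The log2 fold changes were −1.05, −0.85 and −0.95, with edgeR adjusted p of 2.5e-08, 9.15e-07 and 5.46e-10. In the HEK293T Control, normalized separately, CBX8 had a mean of 29.4 CPM, nearer to the targeting groups than to the control ASO. An antisense gene, RP11-353N14.1, overlaps 1 end of CBX8, at chr17:77774397-77775482. The counting is not stated to use strand, so reads in that shared stretch may not be told apart.

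CBX7, the chromobox protein whose chromodomain served as a reader, stood at 7.52, 5.39 and 8.71 CPM with the control ASO. It rose with the SETD5-AS1 ASO, to 14.8, 12.9 and 12.8 CPM, with a log2 fold change of 0.91 (SE 0.16, edgeR adjusted p = 1.57e-04). Without control ASO replicate 2, its lowest library, the value was 0.73 and the call was lost. With the LINC00641 ASO it was at 12.7 and 8.35 CPM, which overlaps the control ASO range, and the log2 fold change was 0.56 (edgeR adjusted p = 0.031). Without LINC00641 replicate 3 that value was 0.83 and passed. With the LINC00662 ASO it was at 8.22, 11.1 and 12.5 CPM, also overlapping, with a log2 fold change of 0.62, which passed at 0.77 without LINC00662 replicate 1 and at 0.77 without control ASO replicate 3. CBX7 had the lowest counts of the 9 genes in these tables, and a COX5BP7 pseudogene overlaps it on the same strand.

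CBX6, another chromobox reader, encoded 248 kb from CBX7 on chromosome 22, was not called. It was at 143, 120 and 129 CPM with the control ASO and at 96.5, 101 and 92.9 with the SETD5-AS1 ASO, which do not overlap. The log2 fold change was −0.43, and −0.38 with the LINC00641 ASO, at 94.9 and 104 CPM. With the LINC00662 ASO it was at 141, 141 and 127 CPM, within the control ASO range. CBX2 did not separate from the control ASO in any comparison, with log2 fold changes of −0.07, −0.17 and −0.10.

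**Figure D2:**
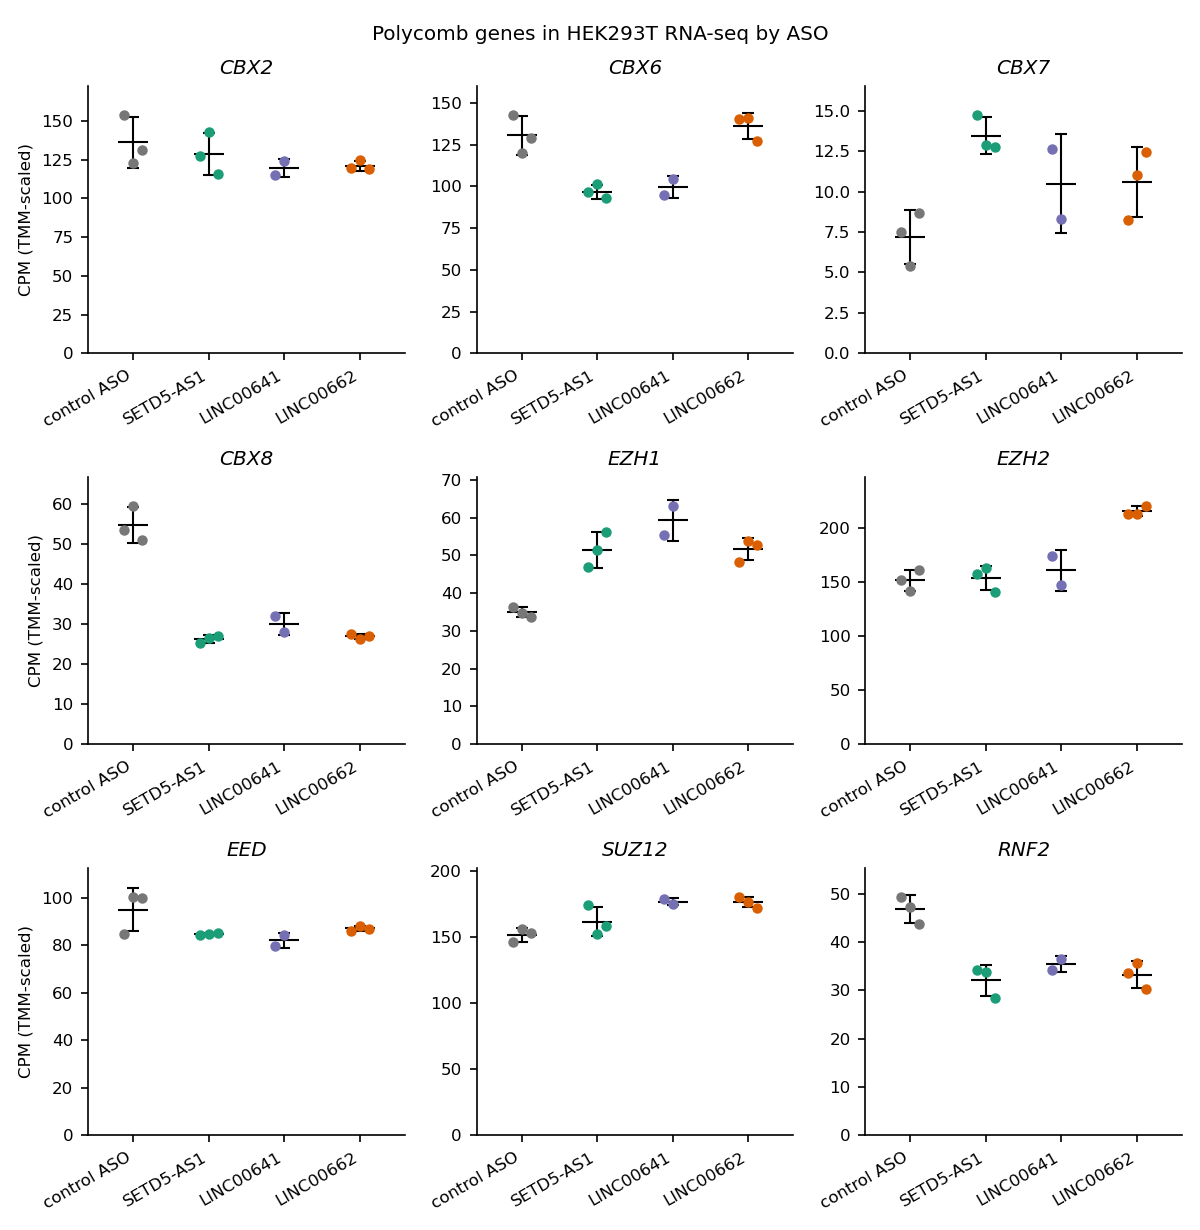
Levels of the 9 genes in HEK293T RNA-seq by ASO, in TMM-scaled CPM on axes that start at 0, with 3 libraries in each group except 2 for LINC00641. Points are libraries and bars give the mean and SD. CBX8 lies at 51.1 to 59.7 CPM with the control ASO and at 25.2 to 32.1 with the others.

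RNF2, the PRC1 ubiquitin ligase, was at 49.4, 47.3 and 43.8 CPM with the control ASO. Its levels were 34.2, 33.7 and 28.4 CPM when SETD5-AS1 was targeted, 34.2 and 36.5 for LINC00641, and 33.6, 35.7 and 30.2 for LINC00662. All 8 targeting libraries lay below all control ASO libraries. The log2 fold changes of −0.54, −0.39 and −0.43 passed the adjusted p but not the fold threshold, so RNF2 was not called.

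Within PRC2, EZH1 was at 36.3, 34.9 and 33.7 CPM with the control ASO and higher in every targeting library. It was at 46.8, 51.4 and 56.1 CPM when SETD5-AS1 was targeted, at 55.4 and 63.2 for LINC00641, and at 48.3, 53.8 and 52.8 for LINC00662. EZH1 was called with the LINC00641 ASO, at a log2 fold change of 0.78 (SE 0.10, edgeR adjusted p = 1.04e-06). The values with the SETD5-AS1 and LINC00662 ASOs were 0.56 and 0.63. Without LINC00641 replicate 3 the LINC00641 value was 0.68, and without control ASO replicate 3 it was 0.74, both short of the threshold, the latter leaving 1 member called.

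EZH2 differed most from the control ASO when LINC00662 was targeted, at 212, 213 and 221 CPM against 152, 142 and 161 with the control ASO. These libraries did not overlap, and the log2 fold change of 0.57 (edgeR adjusted p = 5.86e-08) was under the fold threshold. With the SETD5-AS1 and LINC00641 ASOs its ranges overlapped the control ASO, with log2 fold changes of 0.03 and 0.10. SUZ12 was at 0.24 and 0.29 on the log2 scale with the LINC00641 and LINC00662 ASOs, and EED ranged from −0.20 to −0.06 with no call.

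The share of members called can be read against all genes. It was 2 of 9 with the SETD5-AS1 ASO, where 24.4% of 18544 tested genes were called, 12.9% higher and 11.5% lower. It was 2 of 9 with the LINC00641 ASO, where 22.5% were called (11% higher, 11.5% lower), and 1 of 9 with the LINC00662 ASO, where 24.9% were (11.6% higher, 13.3% lower). The first 2 shares are near the background and the last is below it. The marker levels also moved with the ASOs, and their part in the results was not tested: the summed HCT116 epithelial list was at 634 to 705 CPM with the control ASO, 287 to 305 with SETD5-AS1, 333 to 338 with LINC00641 and 410 to 450 with LINC00662. KRT8 and KRT18 carry this sum as well, while CDH1 was lowest with the control ASO, at a mean of 7.69 CPM against 12.2, 10.7 and 16.2. The summed HEK293T list, carried by NEFM, was at 229 to 238, 234 to 275, 333 to 418 and 316 to 350 CPM in the same order. With library size alone as the scaling, SETD5-AS1 ASO calls split into 3194 higher and 1611 lower, against 2390 and 2135, and the median of all genes shifted from 0.03 to 0.17.

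The targeting ASOs were also compared with each other. None of the 9 genes was called in any of the 3 comparisons, where 1.72% (SETD5-AS1 against LINC00641), 11.1% (LINC00662 against SETD5-AS1) and 8.41% (LINC00662 against LINC00641) of tested genes were called. The edgeR adjusted p was under 0.05 for 0, 2 and 2 genes, and the unadjusted p for 0, 3 and 3. EZH2 was higher with the LINC00662 ASO than with the SETD5-AS1 ASO by 0.49 on the log2 scale (SE 0.07, edgeR adjusted p = 3.86e-05) and than with the LINC00641 ASO by 0.42 (SE 0.08, edgeR adjusted p = 3.89e-04). CBX6 gave 0.49 and 0.45. The last 2 comparisons share the LINC00662 ASO libraries.

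Some other Polycomb genes had larger fold changes than any of the 9 members. Of 38 tested, 1 rose and 5 fell when SETD5-AS1 was targeted, 1 rose and 5 fell for LINC00641, and 0 rose and 6 fell for LINC00662, that is 6 of 38 in each, a smaller share than the 24.4%, 22.5% and 24.9% called over all genes. These genes had median log2 fold changes of −0.19, −0.08 and 0.03 against 0.03, 0.00 and 0.00 over all genes. PCGF1, which marks a variant PRC1, fell by 1.25, 1.36 and 1.13 on the log2 scale. E2F6, a repressor found in another variant, had −0.95, −0.83 and −0.76, and PHF1, a PRC2 accessory protein, −1.14, −0.81 and −0.76. RYBP, which joins variant PRC1, fell by 0.95 and 0.81 with the SETD5-AS1 and LINC00641 ASOs. RYBP was at −0.74 with library size alone and −0.65 without LINC00641 replicate 2, and E2F6 at −0.72 with library size alone and −0.74 without LINC00662 replicate 3, all under the threshold.

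SCMH1, a Polycomb protein with methyl-lysine-binding repeats, went in opposite directions. Its mean was 18.6 CPM with the control ASO, and 55.1, 46.4 and 6.44 with the SETD5-AS1, LINC00641 and LINC00662 ASOs. The log2 fold changes were 1.58, 1.34 and −1.46, and those between the LINC00662 ASO and each of the others were −3.09 and −2.85. KDM6A, a demethylase of H3K27, fell with the LINC00662 ASO, to 10.6 CPM from 29.3, a log2 fold change of −1.39, while its means of 38.2 and 34.7 CPM with the other ASOs were not called.

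**Figure D3:**
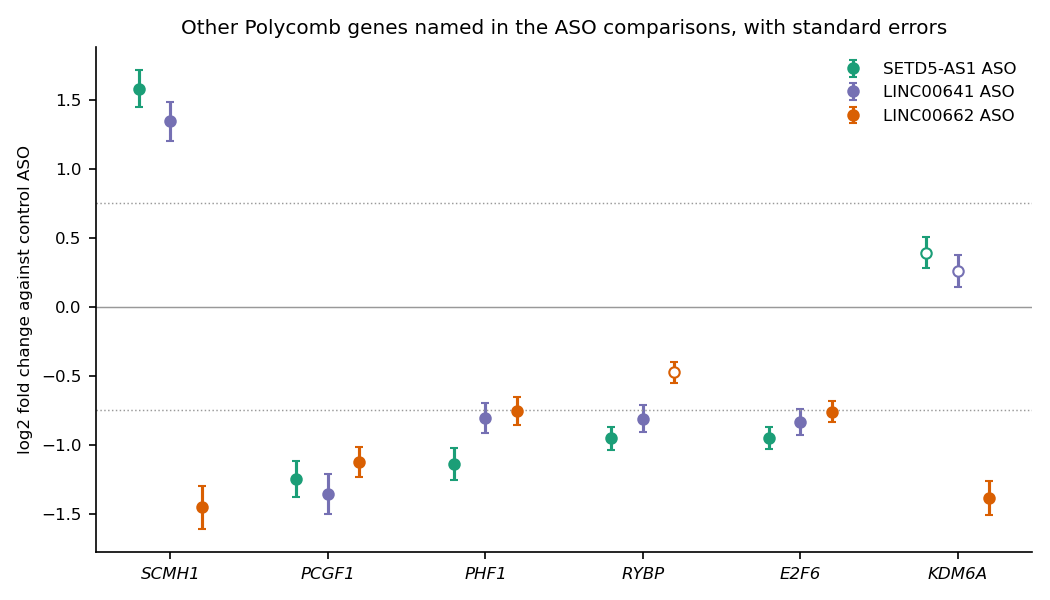
Log2 fold changes against the control ASO of the other Polycomb genes named in the ASO comparisons, with standard errors. Filled points were called and dotted lines mark the fold threshold; SCMH1 is at 1.58, 1.34 and −1.46.

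Chrom-seq with the TAF3 reader asked which RNAs are recovered more near H3K4me3, the mark of active promoters, than with the array alone. In HCT116, 0 of 9 members were called, against 6.62% of 18731 genes, and 5 had an edgeR adjusted p under 0.05. CBX7 was lower, at 16.2, 17.3 and 17.2 CPM against 27.8, 28.1 and 25.7, with a log2 fold change of −0.69 (edgeR adjusted p = 1.32e-07). CBX2 and EED were on the other side, at 0.48 and 0.47. EZH1 was at −0.44, and EZH2 at 0.26. EED libraries held 69.2, 66.1 and 67.1 CPM with TAF3 and 51.6, 46.9 and 48.0 without. For these 5 genes the groups did not overlap, a count with no share over all genes beside it. The other Polycomb genes gave 0 calls of 36, with 22 at an adjusted p under 0.05.

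In NIH3T3, 0 of 8 tested orthologues were called, against 11.1% of 19220 genes. The fitted values ran from −0.39 for Cbx8 to 0.11 for Ezh1, and edgeR adjusted p fell under 0.05 for Suz12 (−0.18) and Rnf2 (−0.20). Cbx6 was not tested, because it had 0 to 5 counts in each NIH3T3 library and 0 in Neuro-2a. Of its 10793 bases, 10342 (95.8%) are overlapped by Npcd on the same strand and 451 lie outside, and Npcd was at 3.39 to 8.39 CPM in Neuro-2a.

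In Neuro-2a, 0 of 8 were called, against 1.03% of 17006 genes. By edgeR 0 had an adjusted p under 0.05 and 2 an unadjusted one, and DESeq2 also called 0. Cbx2 was at 86.0, 78.5 and 69.7 CPM with TAF3 and at 108, 87.4 and 99.8 without, a log2 fold change of −0.34. The spread was widest for Cbx8, at 43.6, 22.6 and 19.8 CPM with TAF3, where replicate 1 was the high one. Without it Cbx8 turned from 0.06 to −0.37 on the log2 scale (edgeR adjusted p = 0.049). Cbx2 was then at −0.41 (edgeR adjusted p = 5.91e-04) and Ezh1 at 0.31 (edgeR adjusted p = 0.017), so 3 of the 8 had an adjusted p under 0.05. Rnf2 was at −0.19, and there were still 0 calls, while the genes called over the whole table went from 176 to 620. The difference between the mouse lines, tested as an interaction, called 0 of 8 members against 3.05% of 19509 genes, with values from −0.19 to 0.44.

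**Figure D4:**
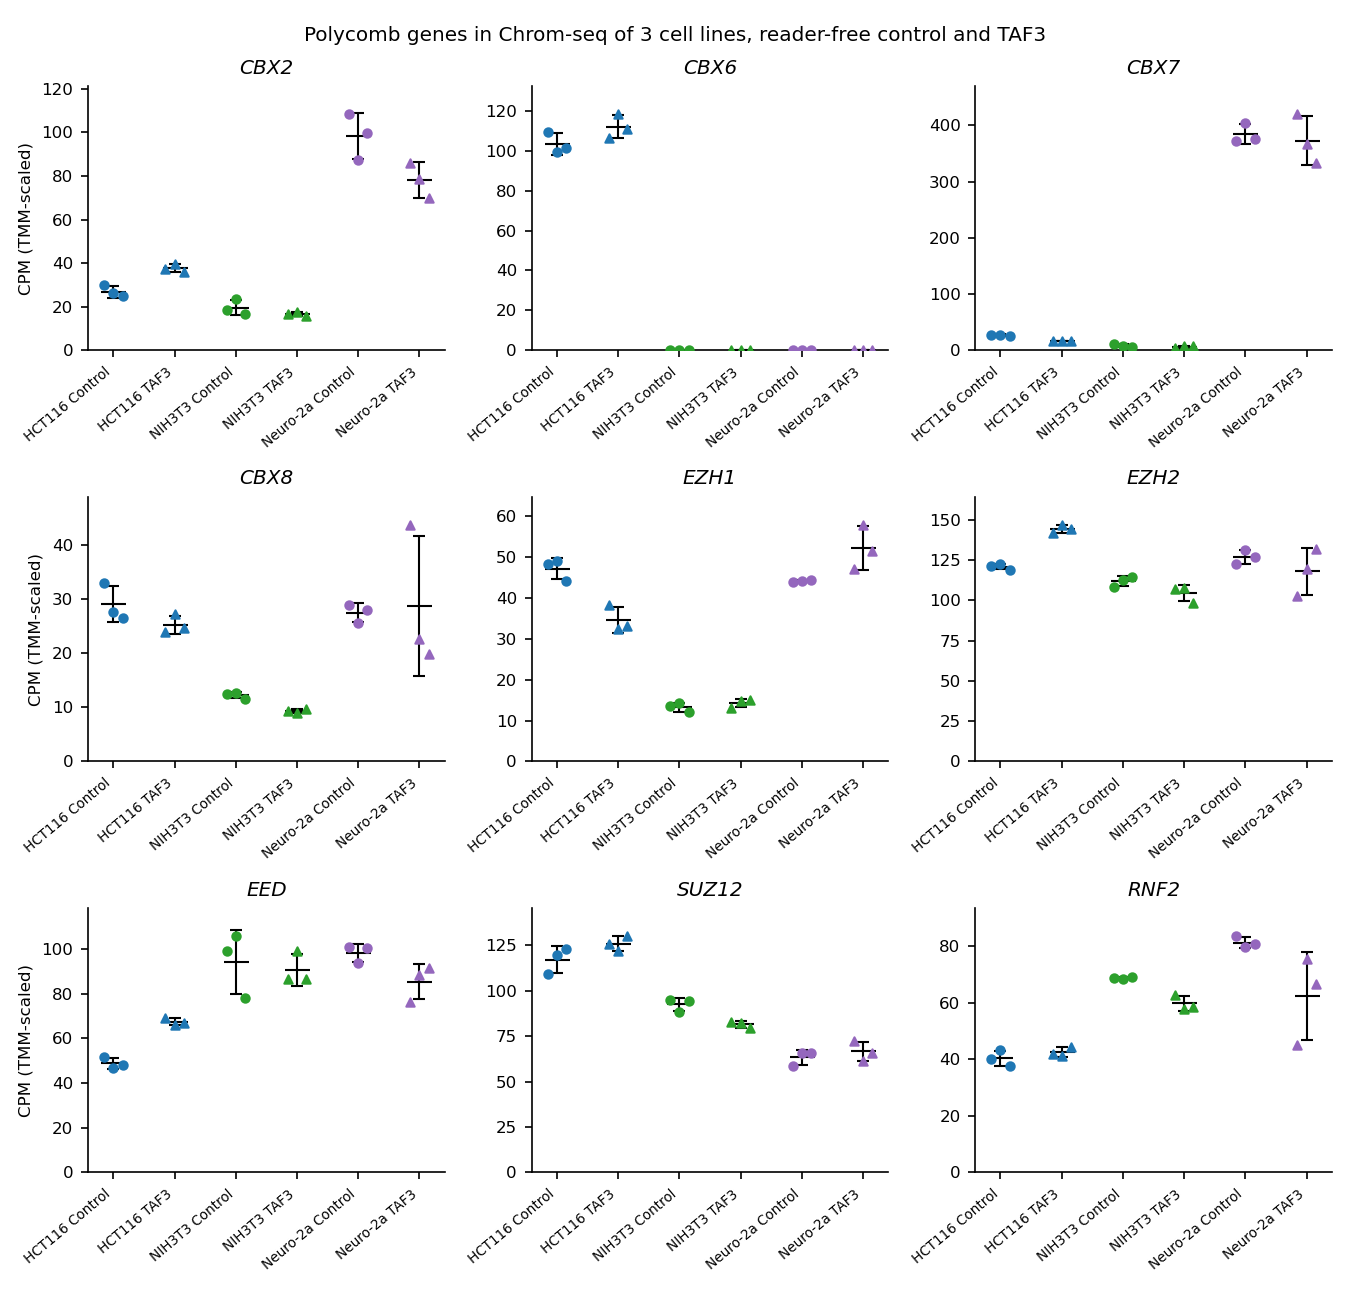
Levels of the 9 genes in the Chrom-seq of 3 cell lines with the array alone (circles) and with TAF3 (triangles), in TMM-scaled CPM, with means and SDs of 3 libraries. Cbx7 is at 384 CPM in the Neuro-2a control and at 8.55 in the NIH3T3 control.

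Cbx7, Cbx2 and Ezh1 levels also lay far apart in the 2 mouse lines, whose tables were normalized separately, so the levels are set side by side with no test. Cbx7 was at 384 ± 17.5 CPM in the Neuro-2a control and at 8.55 ± 3.27 in the NIH3T3 control, and with TAF3 at 373 ± 43.6 and 6.70 ± 1.65 (SD, n = 3 each). The human tables were also normalized separately, and the orders that follow set HCT116 Chrom-seq, of captured RNA, beside HEK293T RNA-seq. CBX7 was highest in the CBX7 cells, at 41.8 CPM, then in HCT116 with the array alone (27.2) and with TAF3 (16.9). The HCT116 TAF3 group overlapped the HEK293T Control (16.5). The ASO groups followed at 13.5 (SETD5-AS1), 10.6 (LINC00662) and 10.5 (LINC00641), and the control ASO was lowest at 7.21, with overlaps among the last 3. For CBX8 the control ASO (54.9 CPM) and CBX7 cells (51.8) came first and overlapped. They were ahead of the LINC00641 ASO at 30.1, the HEK293T Control at 29.4 and the LINC00662 and SETD5-AS1 ASOs at 27 and 26.3. HCT116 had 29.0 CPM with the array alone and 25.3 with TAF3. For EZH1 the order began with the HEK293T Control (77.5) and ended with the control ASO (34.9) and HCT116 with TAF3 (34.6), which overlapped. No test was run across these tables.

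**Figure D5:**
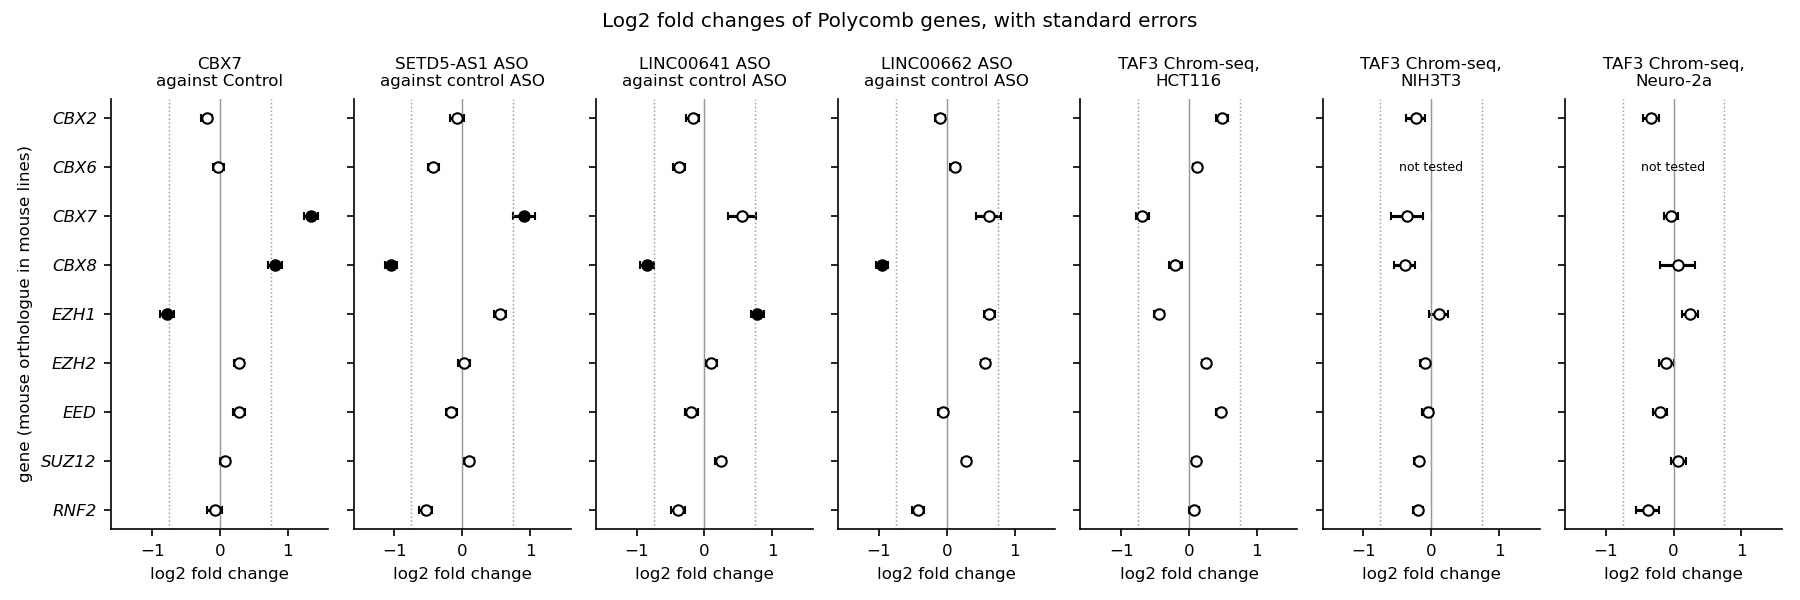
Log2 fold changes of the 9 genes in the 7 comparisons with a control, with standard errors. Filled points were called at an edgeR adjusted p under 0.05 and a size of at least 0.75 (dotted lines); CBX8 is filled in 4 panels and no point is filled in the 3 TAF3 panels.

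Across the 8 human groups used here, the genes whose mean log2 level followed EZH2 most closely among 9544 genes were DHRS7B (Pearson r = 0.94), RAD9A (0.93) and GON4L (0.92). For CBX7 they were PVRL2 (0.97), AKTIP (0.97) and MKKS (0.92). The 8 groups come from 2 cell lines and both assays, several groups share a table and a line, and depths differ, so these values are only a description. For CBX7 the highest group was the CBX7 cells, whose counts can hold the expressed reader.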

How the data were processed

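Gene-level read counts were used as the authors deposited them, as whole numbers with no normalization. Per the labels and the study's methods, reads were trimmed with fastp 0.23.1, checked with FastQC 0.11.8, mapped to hg19 or mm10 by HISAT2 2.1.0 and assigned to GENCODE genes by featureCounts 2.0.1, and the submitters' notes also name DESeq2 1.34.0. Strand and shared reads in counting are not given in the sources used here. Groups came from sample titles. The table with the other 12 libraries (HEK293T Chrom-seq) was not used here.

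Fits used edgeR 4.0.16 (quasi-likelihood, R 4.3.3) on the libraries compared, with TMM scaling, a summed count over 3 per library, and Benjamini-Hochberg adjustment over all tested genes. Calls needed an adjusted p under 0.05 and 0.75 or more of log2 fold change. The genes, the other Polycomb list and the markers were chosen with earlier results of these data known. Named genes were the 9 members, the targets, the reader gene, and up to 5 other Polycomb genes per comparison whose mean reached 100 counts and whose groups did not overlap. E2F6 with the SETD5-AS1 ASO, and PHF1 with the LINC00641 and LINC00662 ASOs, were named after their values were seen, as were Npcd and RP11-353N14.1 and COX5BP7. 1 gene that the rule names in the ASO comparisons is not reported here. The likeness ranking used log2 of CPM with a pseudocount of 0.5. The procedure was tested on simulated data, where 200 genes were shifted by 1.5 log2 units. It recovered 198 for the CBX7 comparison, 195 for the LINC00641 ASO and 199 for Neuro-2a, with 2, 3 and 8 false calls. That shift is larger than the fold changes of the members, and recovery of changes near the threshold was not tested. Among 34 replicate pairs none was a copy, with a lowest chi-square of 2.48 per gene. Alternatives were DESeq2 1.42.0, its size factors, library size alone, no filter, filterByExpr, a replicate block, a joint fit of the ASO groups, and omitting each library in turn. Figures were drawn with matplotlib 3.10.9 in Python 3.11.15. Levels are CPM scaled over the libraries of a table, fits over those compared.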

Additional observations from a re-analysis of the deposited data

Results flagged for a closer look

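The effect of the TAF3 reader on Scml2, another Polycomb gene, differed between NIH3T3 and Neuro-2a, as an interaction term tested. In NIH3T3 it was at 20.8, 17.1 and 20.2 CPM with TAF3 and at 1.97, 3.07 and 2.53 with the array alone, 2.94 apart on the log2 scale (edgeR adjusted p = 6.38e-12). In Neuro-2a the means were 10.7 and 9.98 CPM, a log2 fold change of 0.10. The interaction, Neuro-2a minus NIH3T3, was −2.852 (SE 0.32, edgeR adjusted p = 3.15e-05), and −2.80 without Neuro-2a TAF3 replicate 1. Of the other Polycomb genes, 1 of 35 was called in NIH3T3 and 0 of 36 in Neuro-2a, against 11.1% and 1.03% of all genes. The interaction called 1 of 38, against 3.05% of all genes.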

How the results depend on the processing

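Of 1227 alternative values of the members, 1218 stayed on their side of the call threshold, 6 lost the call and 3 gained one. The sign changed in 43 of the 1227, in 0 of them for a called member and in 1 with an adjusted p under 0.05, that of Cbx8 in Neuro-2a without TAF3 replicate 1. Of 495 values of the other named genes 490 stayed on their side and 5 lost the call. These were the values given beside RYBP and E2F6 and that of SETD5-AS1 with the LINC00641 ASO, at −0.75 with library size alone. E2F6 with the SETD5-AS1 ASO and PHF1 with the LINC00641 and LINC00662 ASOs are not among the 495. How far their calls depend on these settings was not tested. Leaving out 1 library moved the number of members called between 1 and 3 for CBX7 against Control, between 1 and 2 for the SETD5-AS1 ASO, between 1 and 2 for the LINC00641 ASO and between 1 and 2 for the LINC00662 ASO, where the value was 2 without LINC00662 replicate 1 or control ASO replicate 3. No other alternative changed these numbers, and the SETD5-AS1 ASO gave 1 without control ASO replicate 2. In Neuro-2a the genes called over the whole table numbered 176, 398 with DESeq2, 516 with no filter, and 41 to 620 without 1 library. Between the SETD5-AS1 and LINC00641 ASOs they numbered 316, and 177 and 198 when 1 LINC00641 library was left out. In every such fit the lone LINC00641 library was assumed to vary like the other group.

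Replicate numbers did not pair the samples, since deviations of same-numbered libraries correlated between −0.05 and 0.13. With the replicate number as a block, all 157 results stayed on their side of the threshold, with 3 members called for CBX7 against Control, 2 for the SETD5-AS1 ASO, 2 for the LINC00641 ASO, 1 for the LINC00662 ASO and 0 elsewhere. The 3 planned comparisons that need the HEK293T Chrom-seq table were not run. Depth limits CBX7 most, with a mean of 108 to 128 counts per library in the comparisons with the control ASO. Mouse Cbx6 had too few counts to be fitted, and the part of its overlap with Npcd in that was not tested.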
